A study of Mus musculus with 28 samples.

Results

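The regions described here are the 1050 stretches of H3K27me3 whose centre fell in an exon, a UTR or a transcription termination site (TTS) of a protein-coding gene in mouse microglia. They were taken from the 26326 regions of the deposited count table by their annotation. Of all regions, 1199 were centred in an exon, a 5' UTR, a 3' UTR or a TTS, and 1072 of these had a protein-coding nearest gene. No further region was removed because its detailed annotation began with CpG, and 22 were removed because they spanned 50000 bp or more. By annotated centre, 518 members lay in an exon, 208 at a TTS, 176 in a 3' UTR and 148 in a 5' UTR. The choice used position, gene type and length and no measured change, so the comparisons between groups were open to test. At the length limit, the longest member was at Dao with 49873 bp and the shortest region left out was at Spon2 with 51436 bp.

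The study profiled H3K27me3 by ChIP-seq in microglia sorted from adult male C57BL/6 wild-type mice, in 28 libraries of which 14 were H3K27me3 and 14 input. Raw counts covered 12 H3K27me3 libraries, 3 in each of 4 groups. Mice fed 0.2% cuprizone for 4 weeks gave 3 of the groups: CD229+CD11c+, CD229+CD11c- and CD229-CD11c- cells. Basal microglia, from animals fed a regular diet, were gated as CD44Low CD45Low CD11bLow. Cuprizone is a copper chelator that kills oligodendrocytes and so strips myelin. CD229 is a homophilic receptor of the SLAM family (gene Ly9) and CD11c is an integrin chain (gene Itgax), and both appear on subsets of microglia in demyelinating brain. Each condition pooled brains, from 2 to 6 mice, per the labels, and nothing in them says that replicates came from separate mice, so p-values measure the spread between these libraries. Diet and gate differ together between the cuprizone subsets and Basal cells, so their parts in a difference cannot be told apart. The regions themselves were called by the authors in Basal microglia, so a stretch marked only in cuprizone cells is not among them.

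H3K27me3 is a methyl mark on histone H3 that Polycomb repressive complex PRC2 writes, through its catalytic subunit EZH2 or EZH1, and that the demethylases KDM6A and KDM6B remove. It covers genes kept silent in a cell type and is densest over CpG-rich gene starts, above all those of transcription factors of embryonic patterning and of receptors and channels of other lineages. Spread of the mark into coding exons and UTRs is common where a short gene is covered from end to end. In a pooled library, a higher level can mean more cells that carry the mark or more mark per cell, and these cannot be told apart.

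The gene starts that the members cover are shown by the 30-base window richest in CpG within 250 bases before to 50 bases after the start, for regions described below (RefSeq, GRCm38.p6, 5' to 3' on the gene's strand, CpG in capitals). The first 5 belong to regions that were higher in CD229+ subsets than in Basal cells.
Ankrd63, chr2:118704150-118704179, minus strand: gcctccaccccCGcccCGcaacCGcCGcCG
Adra2a, chr19:54045097-54045126, plus strand: cagCGctctccCGggtcCGactCGggtgCG
Oxtr, chr6:112489805-112489834, minus strand: tgctccctcagggtCGCGgtCGCGgtCGCG
Ptger3, chr3:157566836-157566865, plus strand: CGCGggaggagcctCGCGCGgCGtCGggCG
Six6, chr12:72939658-72939687, plus strand: agccCGgagggtgagaCGctgCGgatttCG
The next 4 belong to regions that were lower.
Apoe, chr7:19698777-19698806, minus strand: agtaCGggactgtCGgtgcaCGgCGtacCG
Plxnc1, chr10:94944852-94944881, minus strand: ctcCGCGcctcccCGCGagCGccCGCGcCG
Mcub, chr3:129970264-129970293, minus strand: agccaggaagaagttCGccactCGtttgCG
Slc16a8, chr15:79254758-79254787, minus strand: aagccccagccaggccaggggaaggagtCG
Over its whole 300-base window, Ankrd63 held 24 CpG, Adra2a 28, Oxtr 20, Ptger3 27 and Six6 20, while Apoe held 12, Plxnc1 30, Mcub 11 and Slc16a8 1. All 5 gains shown thus had CpG-rich starts, while some other gains described below held fewer CpG (Ppp1r3g 10, Adra2c 7 and Kcnf1 3). The losses were mixed too, with Plxnc1 holding more CpG than any of the 5 gains shown. The table of promoter sequences covered part of the genes and gave a window inside 446 members. By the window with the most CpG in each member, their median was 12 CpG, and 43.3% held 15 CpG or more. Single windows over the whole table, 32817 in all, had a median of 7, and 34.6% held 15 or more. A member with several windows counts by its highest, so these values are not measured alike.

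The members were regions of ordinary size but stood closer to gene starts than the rest of the set. Their median length was 6572.5 bp (up to 49873 bp), against 6386 bp over all 26326 regions, and their median distance from centre to the nearest start was 3697 bp, against 24396 bp. A gene start, by the deposited distance, lay inside 568 of the 1050 members (54.1%), against 20.0% of all regions. That share was 98.6% for members centred in a 5' UTR, 54.8% for exons, 45.2% at a TTS and 25% for 3' UTRs. The authors' deposited log2 enrichment of Basal H3K27me3 over input, measured in other Basal libraries than those compared here, had a median of 1.71 over members and 1.49 over all regions. Among members it had a median of 1.88 in 5' UTRs, 1.72 in exons, 1.59 in 3' UTRs and 1.56 at a TTS.

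Where the annotated transcript could be matched (1047 members), the centre lay in the transcript of the nearest gene itself in 786 and in a neighbour's transcript in the others. Of the exonic and UTR centres with an exon number, 244 were in the first of several exons, 284 in an inner exon, 249 in the last exon and 65 in the only exon of a single-exon gene. The 1050 members had 1016 distinct nearest genes. A nearest gene was shared by more than 1 member for 32 genes, which held 66 members, so these members are not independent. The X chromosome carried 34 members.

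Depth was similar across the 12 libraries, with 7740002 to 11362168 tags in all regions and a median of 175.5 to 254.5 tags per member. The members held 4.00 ± 0.034% of region tags in CD229+CD11c+ cells, 4.16 ± 0.011% in CD229+CD11c- cells, 3.87 ± 0.026% in CD229-CD11c- cells and 3.83 ± 0.032% in Basal cells (SD, n = 3 each). All 3 libraries of both CD229+ subsets lay above all 6 of the other groups. Titles of 8 of the 12 libraries carry the tag PE150 and those of 4, replicate 3 of each group, do not. Levels are given as CPM, region tags scaled to depth with TMM factors, and fold changes as log2 of the first-named group over the second, with adjusted p from edgeR's quasi-likelihood test and Benjamini-Hochberg adjustment over all 26326 regions. TMM sets the bulk of regions to no change between groups. Scaling by total region tags instead shifted the median log2 fold change of all regions to -0.16 for CD229+CD11c- against Basal cells and to -0.08 for CD229+CD11c+ against Basal cells, and changes below are relative to the TMM reference.

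The comparison of CD229+CD11c- with Basal microglia asks how the mark differs in cells that gained CD229 under demyelination without CD11c. H3K27me3 rose at 240 members (22.9%) and fell at 40 (3.81%), whereas 9.52% of all regions rose and 3.47% fell. The median log2 fold change was 0.10 over members and -0.03 over all regions. The rises included receptors and channels of the nervous system and transcription factors of embryonic development, and the falls included Apoe, Cd72, Lmna and Aldoc. Changes were mostly modest, with 13 of the rises and 4 of the falls past 2-fold. With total-count scaling the split was 167 higher (15.9%) and 110 lower (10.5%), against 5.99% and 14.4% of all regions, and the median of members was -0.04, against -0.16 over all regions. With offsets that remove the dependence of fold change on Basal enrichment and on tag density, 98 members were higher (9.33%) and 54 lower (5.14%), against 4.47% and 2.71% of all regions.

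In CD229+CD11c+ cells against Basal cells, 118 members rose (11.2%) and 19 fell (1.81%), against 4.33% and 1.47% of all regions, with medians of 0.07 and -0.01. Past 2-fold stood 2 of the rises and 2 of the falls. Both CD229+ comparisons use the same Basal libraries. Of the 240 rises and 118 rises, 98 members were shared (40.8% and 83.1%). Of the 40 and 19 falls, 12 were shared (30% and 63.2%), and no member rose in one and fell in the other. The count for CD229+CD11c+ cells rested on single libraries: it was 43 without Basal replicate 4, 82 without Basal replicate 3, 86 without Basal replicate 5, 46 without CD229+CD11c+ replicate 1, 67 without CD229+CD11c+ replicate 2 and 245 without CD229-CD11c- replicate 3, against 137 with all libraries. Calls over all regions moved the same way. In the same order of fits, 1.26%, 2.78%, 2.92%, 1.43%, 1.91% and 7.82% of all regions rose, against 4.33% with all libraries. The shares that fell were 0.418%, 0.52%, 0.927%, 0.311%, 0.365% and 3.19%, against 1.47%. Of the 57 regions named here by rule or by choice and called in this comparison, 35 lost the call in at least 1 of the 12 leave-one-out fits, 34 of them without Basal replicate 4, against 19 of 87 for CD229+CD11c- against Basal cells. A fit of CD229+CD11c+ and Basal cells alone called 251 members (20.3% higher and 3.62% lower), against 7.85% and 3.46% of all regions. With the PE150 tag as a covariate, 331 were called (25.8% higher and 5.71% lower), against 11.2% and 6.06% of all regions. With total-count scaling the split was 74 higher (7.05%) and 38 lower (3.62%), against 2.61% and 3.02% of all regions.

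Rises were most frequent where the region reached the start of its gene. For CD229+CD11c- against Basal cells, 47 of 148 members centred in a 5' UTR rose and 0 fell, 126 of 518 in an exon rose and 21 fell, 40 of 208 at a TTS rose and 13 fell, and 27 of 176 in a 3' UTR rose and 6 fell. The median log2 fold changes were 0.29, 0.12, 0.03 and 0.00 in that order of classes. For CD229+CD11c+ against Basal cells the counts were 32 higher and 1 lower in 5' UTRs, 63 and 11 in exons, 14 and 5 at a TTS, and 9 and 2 in 3' UTRs, with medians of 0.33, 0.10, -0.01 and -0.03. Under total-count scaling the medians for CD229+CD11c- cells were 0.15, -0.02, -0.11 and -0.14, so the sign of the exon and TTS medians depended on the scaling and the order of the classes did not. The differences between classes were not tested, because members of a class share libraries and are no replicates of each other.

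**Figure D1:**
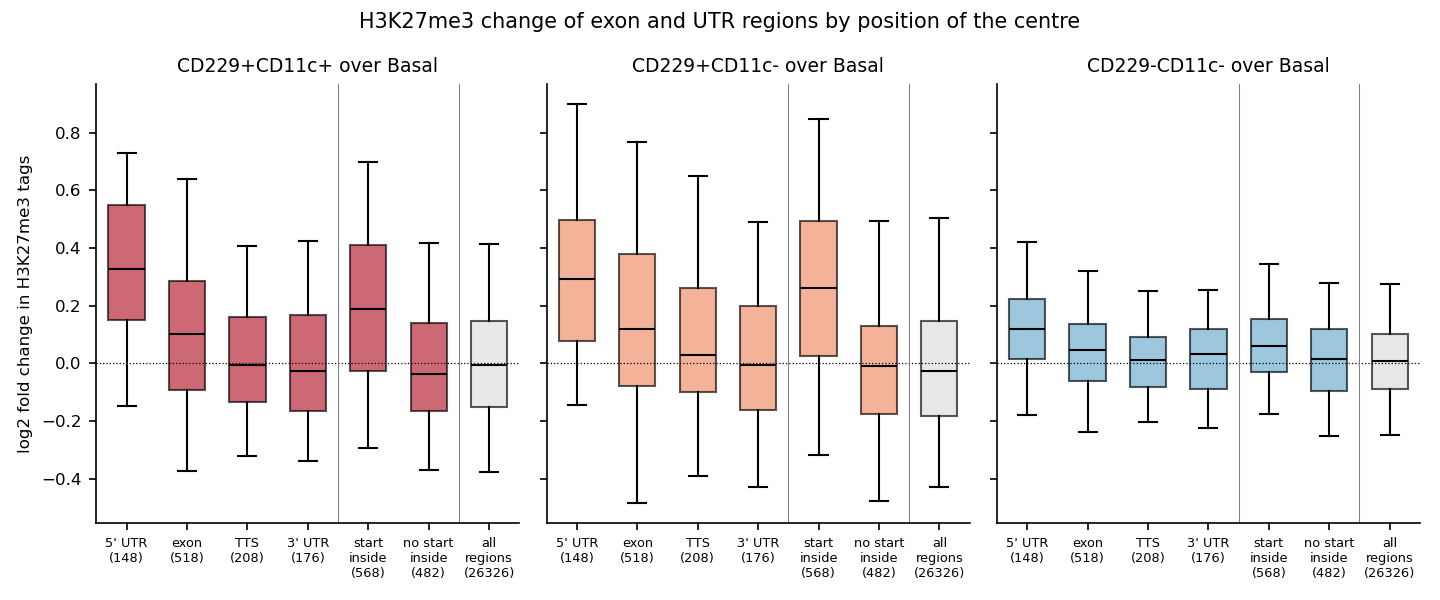
Log2 fold change of H3K27me3 (vertical axis) for member regions by the annotated class of their centre and by whether a gene start lies inside, beside all regions (horizontal axis, number of regions in brackets), for the 3 cuprizone subsets against Basal cells, with boxes from the lower to the upper quartile, a line at the median and whiskers at the 5th and 95th percentiles. Members in 5' UTRs had the highest medians, 0.29 for CD229+CD11c- and 0.33 for CD229+CD11c+ cells, and those in 3' UTRs medians close to 0.

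Members with a gene start inside rose more often than those without one, also within the exon, TTS and 3' UTR classes, while in the 5' UTR class only 2 of 148 lacked a start. Of the 568 members with a start inside, 203 rose in CD229+CD11c- against Basal cells (35.7%) and 15 fell, with a median of 0.26. Of the 482 without one, 37 rose (7.68%) and 25 fell, with a median of -0.01. Among 3' UTR members, 19 of the 44 with a start rose and 0 fell, against 8 and 6 of the 132 without. At a TTS the counts were 31 higher and 6 lower of 94 with a start, and 9 and 7 of 114 without. For exons they were 106 and 9 of 284 with a start, and 20 and 12 of 234 without. For CD229+CD11c+ cells, 106 members with a start rose (18.7%) and 10 fell, and 12 without one rose (2.49%) and 9 fell. Over all 26326 regions, 35.3% of the 5258 with a start rose in CD229+CD11c- cells and 16.1% in CD229+CD11c+ cells, which is close to the shares of the members. Of the 21068 without a start, 3.09% and 1.40% rose, which is below the 7.68% and 2.49% of the members without one. The higher share of rises among members thus went with their holding a start more often and, among regions without a start, with a higher share as well; the difference was not tested.

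Rises also went with the strength of the mark in Basal cells. With members split by deposited Basal enrichment into 4 bins of equal size, 14 of 263 rose in CD229+CD11c- against Basal cells and 14 fell in the weakest bin, and 32 of 262 rose and 16 fell in the next. Further up, 59 of 262 rose and 7 fell, and in the strongest bin 135 of 263 rose and 3 fell. A start inside and strong enrichment were both associated with rises: 172 of 376 members rose that had a start and enrichment above the median of members, 22 of 149 with strong enrichment and no start, 31 of 192 with a start and weaker enrichment, and 15 of 333 with neither. The counts of those sets in CD229+CD11c+ cells were 92, 8, 14 and 4. After the trend with enrichment and density was removed, 82 members with a start rose in CD229+CD11c- cells and 26 fell, against 16 and 28 without, and the median of the strongest bin was 0.10, against 0.41 before.

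**Figure D2:**
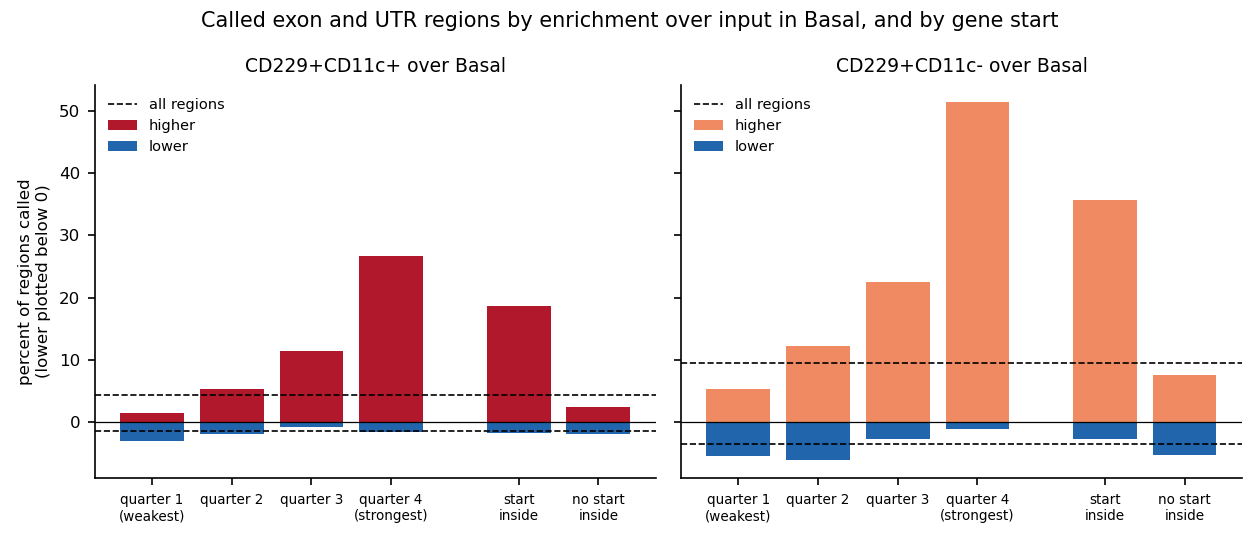
Share of member regions called higher or lower than Basal cells (vertical axis, percent) by 4 equal bins of the authors' deposited Basal enrichment over input and by whether a gene start lies inside (horizontal axis), for the CD229+ subsets, with lower shares drawn below 0 and dashed lines at the shares of all 26326 regions. In CD229+CD11c- cells 135 of 263 members rose in the strongest bin and 14 of 263 in the weakest.

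CpG content of the covered starts varied with the call in the same way. Each of the 446 members with a promoter window inside was taken by its window with the most CpG, which favours members that hold several windows. The 155 that rose in CD229+CD11c- cells had a median of 19 CpG, the 14 that fell 7.5, and the 277 not called 10. Of 193 members with 15 or more CpG, 100 rose and 2 fell, and of 253 with fewer, 55 rose and 12 fell. Among CD229+CD11c+ calls, the 84 that rose had a median of 20 CpG, the 11 that fell 11 and the 351 not called 10. CpG content, Basal enrichment and a gene start inside vary together across regions, and their separate parts were not tested.

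The strongest rises among well-marked members included those at Ankrd63 and Ppp1r3g. Ankrd63, a single-exon gene for an ankyrin repeat protein (chr2:118700245-118706764, centre in the 5' UTR, mm10), had 70.8, 64.2 and 80.9 CPM in CD229+CD11c+, 103, 100.3 and 115 CPM in CD229+CD11c-, 49.8, 43.8 and 57.99 CPM in CD229-CD11c- and 48.3, 37.8 and 44.96 CPM in Basal cells. Every CD229+ library stood above every other library, and the CD229+CD11c- libraries stood above those of CD229+CD11c+ cells. Against Basal cells it rose 2.43-fold in CD229+CD11c- cells (log2 fold change 1.28 ± 0.11 SE, adjusted p = 2.0e-07) and less in CD229+CD11c+ cells (log2 fold change 0.72 ± 0.11 SE, adjusted p = 5.6e-04). Ppp1r3g, which encodes a subunit that directs protein phosphatase 1 to glycogen (chr13:35965007-35974169, centre in the last exon), had 55.1, 51.01 and 48.5 CPM in CD229+CD11c+, 66.6, 75.1 and 66.4 CPM in CD229+CD11c-, 42.2, 42.4 and 37.5 CPM in CD229-CD11c- and 35.7, 30.8 and 32.3 CPM in Basal cells. The 4 groups did not overlap, in the order CD229+CD11c-, CD229+CD11c+, CD229-CD11c- and Basal from high to low. Its log2 fold change against Basal cells was 1.07 in CD229+CD11c- cells (adjusted p = 1.7e-07) and 0.65 in CD229+CD11c+ cells (adjusted p = 2.9e-04).

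Several receptor genes rose. Adra2a, the alpha-2A adrenergic receptor and the main receptor through which noradrenaline lowers cyclic AMP (chr19:54041733-54055706, centre in the 3' UTR of its only exon), had 77.7, 73.6 and 82.9 CPM in CD229+CD11c+, 97.8, 101 and 97.4 CPM in CD229+CD11c-, 53.7, 55.3 and 67.95 CPM in CD229-CD11c- and 55.02, 44.3 and 47.7 CPM in Basal cells. Both CD229+ subsets lay above the other groups without overlap (log2 fold change 1.01 ± 0.10 SE, adjusted p = 4.2e-07 for CD229+CD11c- and log2 fold change 0.67 ± 0.10 SE, adjusted p = 2.5e-04 for CD229+CD11c+ against Basal cells). The related Adra2c (chr5:35277784-35281906, 5' UTR) had a weaker mark and a wider error, with log2 fold change 1.43 ± 0.34 SE, adjusted p = 0.0079 in CD229+CD11c- cells and log2 fold change 1.36 ± 0.34 SE, adjusted p = 0.026 in CD229+CD11c+ cells, where the call was lost without any one of 4 libraries, among them Basal replicate 4 (adjusted p up to 0.13). Oxtr, the oxytocin receptor (chr6:112486678-112492764, centre in the first exon of 2), had 34.4, 32.2 and 26.8 CPM in CD229+CD11c+, 42.7, 39.3 and 36.1 CPM in CD229+CD11c-, 27.1, 25.6 and 16.6 CPM in CD229-CD11c- and 17.8, 21.4 and 20.7 CPM in Basal cells. The CD229+CD11c- libraries were the highest, and 1 CD229+CD11c+ library lay within the range of CD229-CD11c- cells. It rose in CD229+CD11c- cells (log2 fold change 0.98 ± 0.15 SE, adjusted p = 8.7e-05), and in CD229+CD11c+ cells the call (log2 fold change 0.63 ± 0.15 SE, adjusted p = 0.015) was lost without Basal replicate 3, Basal replicate 4, CD229+CD11c+ replicate 1 or CD229+CD11c+ replicate 2 (adjusted p up to 0.1). Ptger3, the EP3 receptor for prostaglandin E2 (chr3:157565166-157568833, 5' UTR), rose in both, with log2 fold change 0.98 ± 0.13 SE, adjusted p = 1.5e-05 and log2 fold change 0.73 ± 0.13 SE, adjusted p = 0.0018. Adgrb1, an adhesion receptor that binds phosphatidylserine on dying cells (chr15:74511262-74521381, 5' UTR), rose in CD229+CD11c- cells (log2 fold change 0.93 ± 0.20 SE, adjusted p = 0.0047). In CD229+CD11c+ cells it rose as well (log2 fold change 0.87, adjusted p = 0.019). That call was lost without Basal replicate 3, Basal replicate 4, CD229+CD11c+ replicate 1 or CD229+CD11c+ replicate 2 (adjusted p up to 0.097).

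Other rises were at kinases and enzymes. The region assigned to Mapk12, the stress kinase p38 gamma (chr15:89134295-89150478), was centred on the TTS of its neighbour Mapk11, the kinase p38 beta, and had 154, 147 and 163 CPM in CD229+CD11c+, 203, 204 and 209.6 CPM in CD229+CD11c-, 105, 113 and 129 CPM in CD229-CD11c- and 114, 98.5 and 99.9 CPM in Basal cells. The CD229+CD11c- libraries were about level with each other and above those of CD229+CD11c+ cells, which were above both remaining groups (log2 fold change 0.98 ± 0.08 SE, adjusted p = 9.6e-08 for CD229+CD11c- and log2 fold change 0.57 ± 0.08 SE, adjusted p = 2.3e-04 for CD229+CD11c+ against Basal cells). Sgsh, a lysosomal enzyme that degrades heparan sulfate (chr11:119321868-119364564, TTS), lay in a longer region that rose in CD229+CD11c- cells (log2 fold change 0.91 ± 0.07 SE, adjusted p = 9.6e-08) and in CD229+CD11c+ cells (log2 fold change 0.70 ± 0.07 SE, adjusted p = 1.2e-05). The region nearest Ube2m, which encodes an enzyme that attaches NEDD8 (chr7:13042479-13046685), was centred on the last exon of the zinc finger gene Mzf1 and rose by a log2 fold change of 1.06 in CD229+CD11c- cells and 0.78 in CD229+CD11c+ cells (adjusted p = 1.9e-07 and 3.9e-05).

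**Figure D3:**
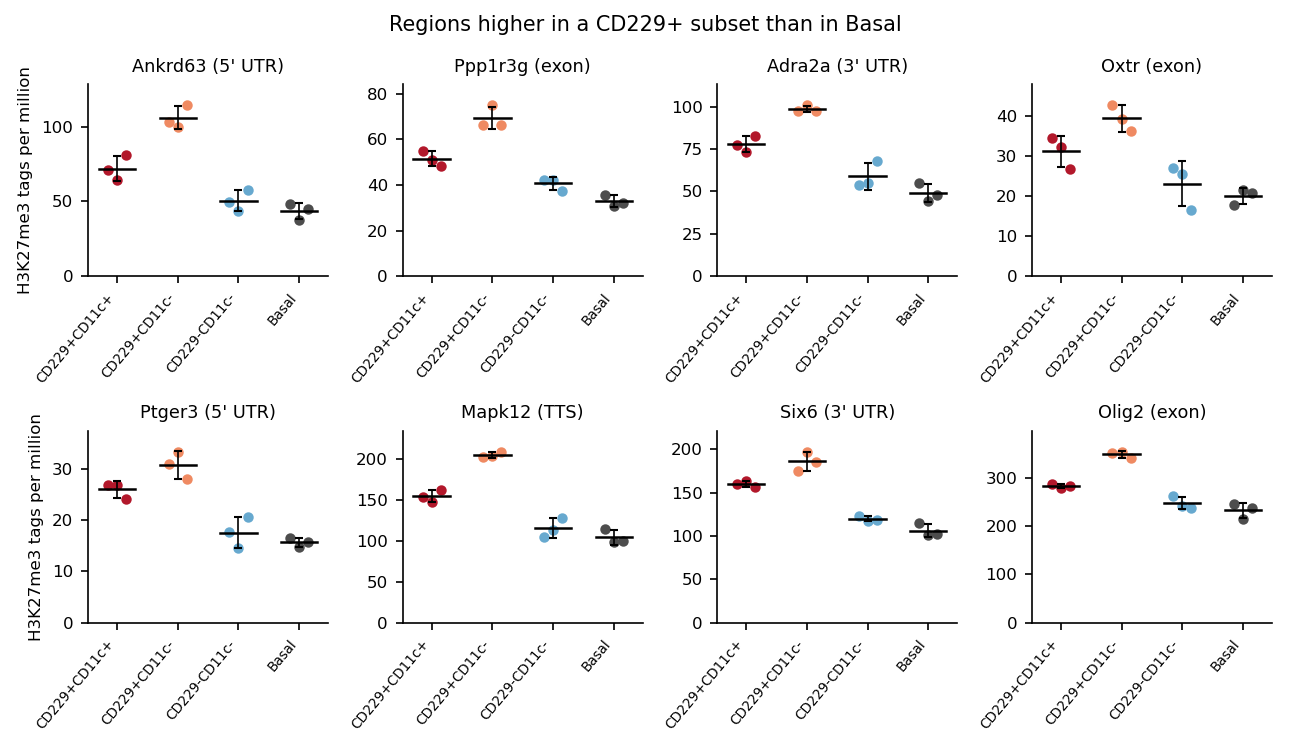
H3K27me3 level (CPM, vertical axis, each panel with its own scale) in each of the 12 libraries at 8 member regions that rose, by group, with points for libraries, lines for group means and error bars for the SD (n = 3). CD229+CD11c- libraries are the highest at Ankrd63, Ppp1r3g, Adra2a, Oxtr, Ptger3, Mapk12, Six6 and Olig2, the 8 regions shown.

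Falls included genes known from reactive microglia. Apoe, apolipoprotein E, a lipid carrier that disease-associated microglia make in large amounts (chr7:19694469-19699447, centre in exon 3 of the annotated transcript, with the start inside), was weakly marked in Basal cells (deposited log2 enrichment 1.07) and had 2.03, 14.2 and 3.10 CPM in CD229+CD11c+, 6.56, 6.19 and 7.97 CPM in CD229+CD11c-, 13.03, 14.8 and 18.1 CPM in CD229-CD11c- and 19.9, 21.1 and 19.5 CPM in Basal cells. All 3 libraries of every cuprizone subset were below all 3 Basal libraries, and within CD229+CD11c+ cells replicate 2 stood far above the other two. The mark fell in CD229+CD11c- cells (log2 fold change -1.54 ± 0.39 SE, adjusted p = 0.013) and in CD229+CD11c+ cells (log2 fold change -1.70 ± 0.40 SE, adjusted p = 0.017). In CD229+CD11c+ cells the log2 fold change ranged from -2.95 to -1.27 over leave-one-out fits, and the call was lost without Basal replicate 4, CD229-CD11c- replicate 3 or CD229+CD11c+ replicate 1 (adjusted p up to 0.068). The CD229+CD11c- call was lost without CD229-CD11c- replicate 3 (adjusted p = 0.062), and both calls were lost with the PE150 tag as a covariate. Cd72, a C-type lectin receptor of B cells that reactive microglia also express (chr4:43450314-43454333, exon 5 of 9, start outside), was chosen after its values were seen and had 3.24, 2.48 and 4.69 CPM in CD229+CD11c+, 5.02, 4.79 and 7.86 CPM in CD229+CD11c-, 6.77, 9.34 and 13.3 CPM in CD229-CD11c- and 13, 10.9 and 11.7 CPM in Basal cells. No CD229+ library reached the lowest Basal library, and the CD229+CD11c+ libraries were the lowest of all. It fell in CD229+CD11c+ cells (log2 fold change -1.74 ± 0.26 SE, adjusted p = 4.8e-04) and in CD229+CD11c- cells (log2 fold change -1.01 ± 0.25 SE, adjusted p = 0.0076), where the call was lost without CD229+CD11c- replicate 1 or replicate 2 (adjusted p up to 0.052).

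Plxnc1, a receptor for semaphorin 7A (chr10:94939988-94947346, first exon), passed the test against Basal cells in CD229+CD11c+ cells and in no other subset. It had 18.4, 17.04 and 20.3 CPM in CD229+CD11c+, 24.98, 27.7 and 27.4 CPM in CD229+CD11c-, 28.9, 25.7 and 34.5 CPM in CD229-CD11c- and 31.1, 30.1 and 26.7 CPM in Basal cells. The CD229+CD11c+ libraries lay below all others, whereas the other 3 groups overlapped. Its log2 fold change against Basal cells was -0.65 ± 0.12 SE in CD229+CD11c+ cells (adjusted p = 0.003) and -0.13 ± 0.12 SE in CD229+CD11c- cells (adjusted p = 0.54), and the difference between the CD229+ subsets was -0.52 ± 0.13 SE (adjusted p = 0.052), which missed the threshold. Kcnma1, the calcium-activated BK potassium channel (chr14:24001288-24006578, first exon, chosen after its values were seen), had the same order, with log2 fold change -0.89 ± 0.21 SE, adjusted p = 0.014 for CD229+CD11c+ cells, -0.06 for CD229+CD11c- cells and -0.83 between them (adjusted p = 0.065). Its fall was lost without Basal replicate 3, Basal replicate 4 or CD229+CD11c+ replicate 1 (adjusted p up to 0.1). Dkk2, a secreted Wnt regulator (chr3:132083250-132088351, 5' UTR), had -0.53 in CD229+CD11c+ cells (adjusted p = 0.015, lost without any one of 4 libraries, among them Basal replicates 3 and 4) and -0.03 in CD229+CD11c- cells (adjusted p = 0.92).

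Falls shared by both CD229+ subsets included Mcub, the inhibitory subunit of the mitochondrial calcium uniporter (chr3:129966592-129973514, first exon), with 17.3, 16.5 and 18.7 CPM in CD229+CD11c+, 17.3, 18.3 and 20.5 CPM in CD229+CD11c-, 24.6, 24.1 and 27.5 CPM in CD229-CD11c- and 31.01, 25.4 and 24.2 CPM in Basal cells. The CD229+ libraries of both subsets overlapped each other and lay below every CD229-CD11c- and Basal library. The log2 fold change was -0.61 ± 0.12 SE for CD229+CD11c+ (adjusted p = 0.0053) and -0.52 ± 0.12 SE for CD229+CD11c- cells (adjusted p = 0.0062; 0.052 without Basal replicate 3). At Lmna, which encodes lamins A and C of the nuclear envelope, the region over the first exon (chr3:88499737-88506435) had log2 fold change -0.65 ± 0.17 SE, adjusted p = 0.023 for CD229+CD11c+ and log2 fold change -0.67 ± 0.17 SE, adjusted p = 0.0087 for CD229+CD11c- cells. The call was lost without CD229+CD11c- replicate 2 in CD229+CD11c- cells and without any one of 5 libraries, the 3 Basal ones included, in CD229+CD11c+ cells. A separate member over its 3' UTR (chr3:88477662-88485718) did not pass, with -0.30 and 0.02. Both Lmna regions were chosen after their values were seen. Slc16a8, a lactate transporter (chr15:79250232-79266132, centred on the TTS of its neighbour Baiap2l2), was the best marked of the falls described here, with 55.1, 54.4 and 68.7 CPM in CD229+CD11c+, 50.8, 59.6 and 56.7 CPM in CD229+CD11c-, 77.8, 83.3 and 74.9 CPM in CD229-CD11c- and 79.4, 68.7 and 76.3 CPM in Basal cells. All CD229+CD11c- libraries lay below both other groups, and the highest CD229+CD11c+ library was level with the lowest Basal one (log2 fold change -0.43 ± 0.10 SE, adjusted p = 0.0037 for CD229+CD11c-, and log2 fold change -0.33 ± 0.10 SE, adjusted p = 0.044, lost in 7 of 12 leave-one-out fits, for CD229+CD11c+ cells).

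Aldoc, the aldolase of astrocytes and some neurons (chr11:78321517-78327717, exon 2), fell in CD229+CD11c- cells (log2 fold change -0.70 ± 0.15 SE, adjusted p = 0.0024) and had -0.43 in CD229+CD11c+ cells (adjusted p = 0.09). Ptger2, the EP2 receptor for prostaglandin E2 (chr14:44988139-44991040, first exon), fell in CD229+CD11c- cells (log2 fold change -0.74 ± 0.18 SE, adjusted p = 0.006), so that the EP2 and EP3 receptor genes moved in opposite directions there. Bcl2l11, which encodes the cell death protein Bim (chr2:128121064-128125607, centred in a 3' UTR of the neighbour Acoxl), fell in CD229+CD11c+ cells (log2 fold change -0.65 ± 0.18 SE, adjusted p = 0.035), a call lost in 5 of 12 leave-one-out fits, those without each Basal library among them. Ptger2 and Bcl2l11 were chosen after their values were seen.

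**Figure D4:**
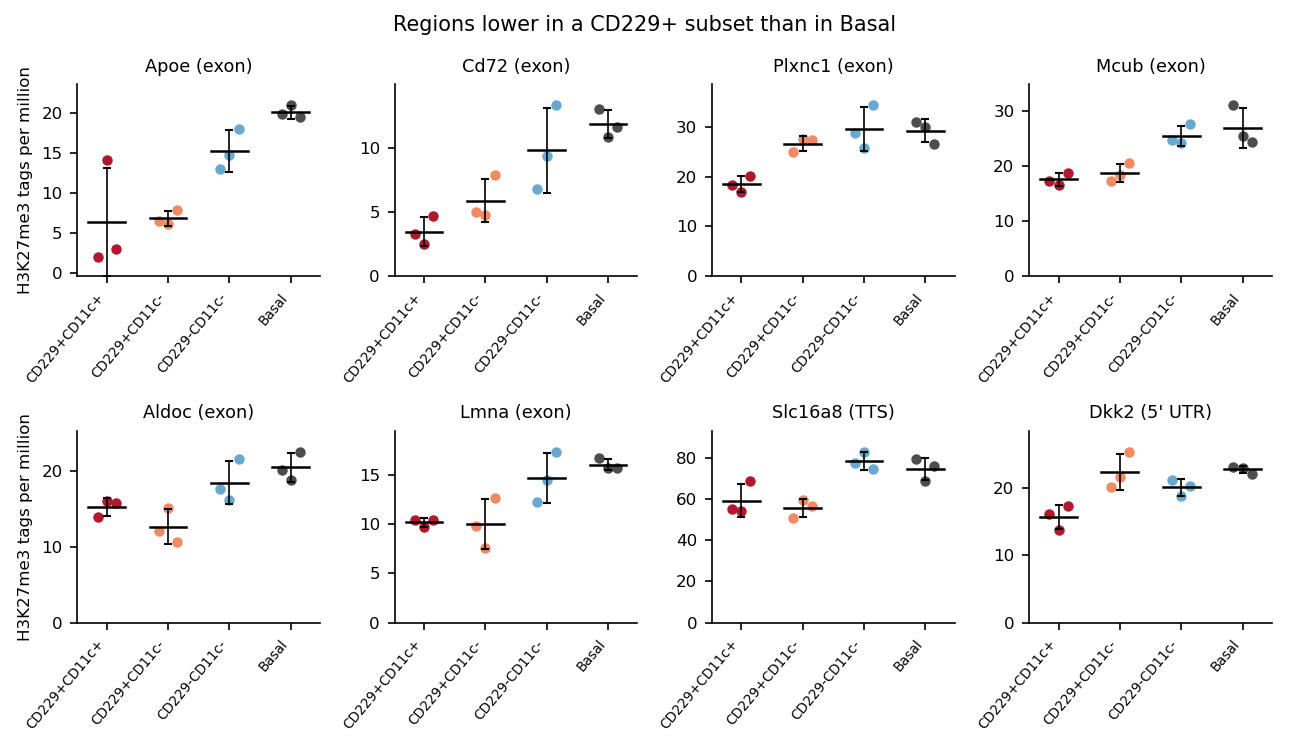
H3K27me3 level (CPM, vertical axis, each panel with its own scale) in each of the 12 libraries at 8 member regions that fell in a CD229+ subset, by group, with points for libraries, lines for group means and error bars for the SD (n = 3). At Apoe and Cd72 every CD229+ library is below every Basal library, and at Plxnc1 and Dkk2 the CD229+CD11c+ libraries alone are below all others.

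Between CD229-CD11c- microglia of cuprizone-fed mice and Basal microglia, no member was called (0 higher and 0 lower, against 0 and 0 percent of all regions) by edgeR's quasi-likelihood test or by DESeq2, with 45 members and 1103 regions in all at an unadjusted p under 0.05. The median log2 fold change of members was 0.04, against 0.01 over all regions. Among the genes above, Ankrd63 had 0.22, Adra2a 0.27, Apoe -0.40, Cd72 -0.26 and Plxnc1 0.03, each with an adjusted p of 0.98 or more. With the 8 PE150-tagged libraries alone, 57 members were higher (5.43%) and 7 lower (0.667%), against 2.99% and 0.49% of all regions, so that the count of 0 rested on the choice of libraries.

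Within cuprizone-fed mice, CD229+CD11c- cells had a higher level than CD229-CD11c- cells at 166 members (15.8%) and a lower one at 20 (1.90%), against 6.75% and 1.60% of all regions. With the replicate number as a block, 278 were higher (26.5%) and 56 lower (5.33%), against 12% and 5.47% of all regions. The split with total-count scaling was 109 higher and 61 lower, against 4.02% and 6.45% of all regions. Ankrd63 had a log2 fold change of 1.07, Ube2m 0.90, Mapk12 0.83, Sgsh 0.79 and Oxtr 0.78, all higher and all called. The falls included Slc16a8 (-0.50), Aldoc (-0.56) and Mcub (-0.45), the last of these lost without 1 of 3 libraries, CD229-CD11c- replicate 3 among them.

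CD229+CD11c+ cells differed from CD229-CD11c- cells at 13 members upward and 3 downward, against 0.395% and 0.152% of all regions, or 165 and 24 with the replicate number as a block, against 5.9% and 1.79% of all regions. Sgsh (0.58), Ube2m (0.62), Six6 (0.42), Mapk12 (0.42) and Foxq1 (0.52) were among the rises. Cd72 (log2 fold change -1.48 ± 0.27 SE, adjusted p = 0.0092) and Plxnc1 (log2 fold change -0.68 ± 0.12 SE, adjusted p = 0.0092, lost without CD229+CD11c+ replicate 1 or 2) were among the falls. The count was 5 without CD229+CD11c+ replicate 1, 8 without CD229+CD11c+ replicate 2, 9 without CD229-CD11c- replicate 2 and 32 without CD229-CD11c- replicate 3, against 16 with all libraries. In the same order of fits, 0.114%, 0.163%, 0.133% and 0.858% of all regions were higher, against 0.395% with all libraries. The shares that were lower were 0.0532%, 0.0608%, 0.125% and 0.171%, against 0.152%. With total-count scaling, 9 were higher (0.857%) and 6 lower (0.571%), against 0.228% and 0.19% of all regions. With offsets for the trend with enrichment and density, 5 were higher and 5 lower (0.476% each), against 0.289% and 0.232% of all regions.

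The direct comparison of CD229+CD11c+ with CD229+CD11c- cells asks what differs with CD11c among CD229+ cells. Of the members, 18 were lower in CD229+CD11c+ cells and 1 was higher, against 0.771% and 0.0532% of all regions, and the median log2 fold change was -0.06. The 18 included Ankrd63 (-0.56), Ppp1r3g (-0.43), Mapk12 (-0.41), Olig2 (-0.30) and the potassium channel gene Kcnk12 (-0.75), which had risen in CD229+CD11c- cells. Ppp1r1b, which encodes the dopamine-regulated phosphatase inhibitor DARPP-32 (chr11:98345045-98355200, centred on the TTS of a neighbouring transcript), had 61.1, 54.2 and 72.9 CPM in CD229+CD11c+, 84.5, 84.3 and 104 CPM in CD229+CD11c-, 51.2, 49.97 and 58.9 CPM in CD229-CD11c- and 55.4, 46.2 and 44.2 CPM in Basal cells. Its CD229+CD11c- libraries lay above all others, and the CD229+CD11c+ libraries overlapped with the remaining groups (log2 fold change -0.53 ± 0.11 SE, adjusted p = 0.032). Wnk4, a kinase that controls salt transport (chr11:101258353-101271930, exon 5 of 19), showed the same order with -0.41. The 1 member that was higher was at Ddx41, an RNA helicase that also senses DNA (chr13:55532073-55535883, exon 9 of 17, chosen after its values were seen), with 12.1, 13.7 and 12.8 CPM in CD229+CD11c+, 6.85, 7.13 and 7.97 CPM in CD229+CD11c-, 8.23, 7.19 and 11.7 CPM in CD229-CD11c- and 10.9, 11.5 and 10.2 CPM in Basal cells. Its CD229+CD11c+ libraries lay above all others and its CD229+CD11c- libraries below all Basal ones (log2 fold change 0.81 ± 0.18 SE, adjusted p = 0.033). These calls rested on single libraries: the count of 19 became 0 without CD229+CD11c- replicate 3 or CD229+CD11c+ replicate 1, 1 without CD229+CD11c- replicate 2 or CD229+CD11c+ replicate 2, 2 without CD229+CD11c- replicate 1 and 69 without CD229-CD11c- replicate 3. In the same order of fits, 0.0494%, 0.038%, 0.148%, 0.0342%, 0.239% and 2.81% of all regions were lower, against 0.771% with all libraries. Calls over all regions thus moved the same way as those of members. The member count was 0 with total-count scaling, against 0.0114% of all regions higher and 0.095% lower. With the replicate number as a block, 15 members were higher (1.43%) and 136 lower (13%), against 1.85% and 6.51% of all regions. With the PE150 tag as a covariate, 14 were higher (1.33%) and 125 lower (11.9%), against 1.39% and 5.91% of all regions. With offsets for the trend with enrichment and density, 1 member was lower (0.0952%) and 2 were higher (0.19%), against 0.095% and 0.076% of all regions. The median of members was then 0.01, so the sign of the median depended on that setting.

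Genes were also followed by 25 lists of pathways and cell types, matched by nearest gene, of which 23 held at least 1 member. The lists were chosen with earlier results of these data known. Lists overlapped, so a region could count in more than 1, as those at Olig2, Sox7, Sox18, Egr3 and Zic2 did. The clearest was the list of developmental transcription factors, genes that pattern the embryo and are targets of Polycomb in many adult cells. Of its 37 member regions, 23 rose in CD229+CD11c- against Basal cells and 1, at Ascl4, fell, with a median log2 fold change of 0.45, against -0.03 over all regions. In CD229+CD11c+ cells 14 rose and 0 fell, with a median of 0.26. With total-count scaling 22 rose and 2 fell in CD229+CD11c- cells, and with the trend of enrichment and density removed 8 rose and 1 fell, with a median of 0.17.

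Six6, a homeobox factor of eye and pituitary (chr12:72930319-72956191, 3' UTR), had 159.6, 163 and 156 CPM in CD229+CD11c+, 175, 197 and 185 CPM in CD229+CD11c-, 123, 118 and 118 CPM in CD229-CD11c- and 114, 101 and 102 CPM in Basal cells. The 4 groups did not overlap, with CD229+CD11c- libraries the highest and Basal the lowest (log2 fold change 0.81 ± 0.07 SE, adjusted p = 1.9e-07 for CD229+CD11c- and log2 fold change 0.59 ± 0.07 SE, adjusted p = 4.2e-05 for CD229+CD11c+ against Basal cells). Olig2, the factor that specifies the oligodendrocyte lineage, sat in one of the longer members (chr16:91206502-91247066, last exon) and had 288, 279 and 283 CPM in CD229+CD11c+, 351, 355 and 341 CPM in CD229+CD11c-, 262, 242 and 238 CPM in CD229-CD11c- and 246, 214 and 237 CPM in Basal cells. The CD229+CD11c- libraries stood above the rest, and the CD229+CD11c+ libraries above the lower groups by a smaller margin (log2 fold change 0.59 ± 0.07 SE, adjusted p = 3.1e-06, and log2 fold change 0.29 ± 0.07 SE, adjusted p = 0.013, lost without Basal replicate 4 or CD229+CD11c+ replicate 1). Scrt1, a neural zinc finger repressor (0.98 in CD229+CD11c- cells and 0.72 in CD229+CD11c+ cells), and Foxq1, a forkhead factor (0.83 and 0.73), rose in both. En1, a homeobox factor of midbrain and hindbrain in one of the longest members (0.53 and 0.35, the CD229+CD11c+ call lost without Basal replicate 4), and Zic2 (0.66, and 0.24 with adjusted p = 0.17) also rose in CD229+CD11c- cells. Calls at Olig2, Scrt1, En1 and Zic2 were lost once the trend with enrichment and density was removed.

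Genes of neuronal signalling rose in smaller shares, to be read against the 22.9% and 11.2% of all members that rose in CD229+CD11c- and CD229+CD11c+ cells. Of 36 ion channel members, 8 rose (22.2%, about the share of members) and 0 fell in CD229+CD11c- against Basal cells (median 0.16), and 8 rose (22.2%) and 1, Kcnma1, fell in CD229+CD11c+ cells (median 0.26). Kcnk12 (1.45 and 0.70), the modifier subunit gene Kcnf1 (1.01 and 0.97) and the acid-sensing channel Asic2 (0.77 and 0.71) rose in CD229+CD11c- and CD229+CD11c+ cells, in that order of values, and the CD229+CD11c+ calls at Kcnk12 and Kcnf1 were lost without Basal replicate 4. Of 28 members at neurotransmitter receptors and synaptic genes, 8 rose (28.6%) and 0 fell in CD229+CD11c- cells (median 0.21) and 6 rose (21.4%) and 0 fell in CD229+CD11c+ cells (median 0.23). Of 16 cadherins and protocadherins, 5 and 3 rose (31.2% and 18.8%) and none fell (medians 0.40 and 0.31), among them Pcdh19 on the X chromosome (0.83 and 0.51), a protocadherin of neuron adhesion whose CD229+CD11c+ call was lost without Basal replicate 4. Of 53 G-protein-coupled receptors, 7 rose (13.2%) and 2 fell in CD229+CD11c- cells and 6 rose (11.3%) and 0 fell in CD229+CD11c+ cells (median -0.01 in both). With total-count scaling the split for these receptors in CD229+CD11c- cells was 6 higher and 10 lower, so its direction depended on the scaling.

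Growth factors and morphogens had 6 of 16 members higher in CD229+CD11c- cells, with the activin subunit gene Inhbb at 0.90, the hedgehog ligand gene Dhh at 0.57 and Fgf16 at 0.55, and 1 higher (Inhbb) and 1 lower (Dkk2) in CD229+CD11c+ cells. Solute carriers had 8 higher (24.2%) and 1 lower of 33 in CD229+CD11c- cells and 4 higher (12.1%) and 1 lower in CD229+CD11c+ cells, and matrix genes 5 higher (20%) and 1 lower of 25 and 2 and 2, shares near those of all members or below them. With total-count scaling the splits in CD229+CD11c- cells were 5 higher and 4 lower for solute carriers and 2 higher and 4 lower for matrix genes. Zinc finger genes had 5 and 2 of 13 higher and none lower, and axon guidance genes 1 higher of 9 in CD229+CD11c- cells, Sema6c, and 1 lower in CD229+CD11c+ cells, Plxnc1. In CD229+CD11c- cells the medians of zinc finger genes (0.03), matrix (0.04), axon guidance (0.05) and growth factors (0.05) turned to -0.11, -0.10, -0.09 and -0.09 with total-count scaling, so the sign of these medians depended on the scaling.

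**Figure D5:**
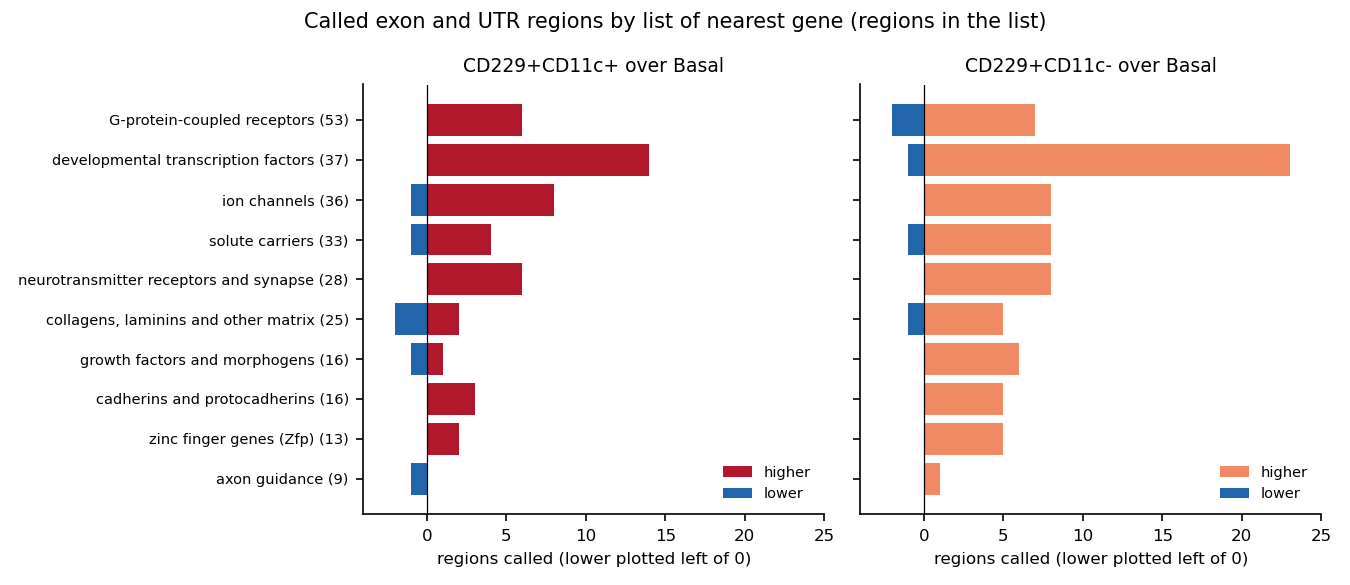
Number of member regions called higher or lower than Basal cells (horizontal axis, lower drawn left of 0) in each gene list of 9 or more members (vertical axis, list size in brackets), for the CD229+ subsets. Developmental transcription factors had 23 of 37 higher in CD229+CD11c- cells and 14 of 37 in CD229+CD11c+ cells.

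Of 4 members at genes of disease-associated microglia, Apoe fell in CD229+CD11c- cells and Apoe and Dkk2 fell in CD229+CD11c+ cells, and none rose. The other members, at Postn and Myof, had log2 fold changes of -0.27 and 0.10 in CD229+CD11c- and 0.07 and 0.36 in CD229+CD11c+ cells. Apoe was also the 1 of 2 lipid handling members that fell, beside Pltp, a phospholipid transfer protein (0.08 and 0.00). No member lay at a gene of the homeostatic microglia list or the lymphocyte list, so the identity of the sorted cells could not be checked at these regions. Immediate early genes had 2 of 3 members higher in CD229+CD11c- cells, Fosb (0.68) and the longer Egr3 region (0.45), and none in CD229+CD11c+ cells. Epop, a PRC2-associated protein, was the 1 of 4 Polycomb members that rose in CD229+CD11c- cells (0.72), and the cytokine gene Lif the 1 of 3 in its list (0.35). Calls at Fosb, Egr3, Epop and Lif were lost once the trend with enrichment and density was removed.

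Lists for cell types that a sort can carry over were read in the same way. In CD229+CD11c- cells, 2 of 4 oligodendrocyte members rose, Olig2 among them, 2 of 4 endothelial members rose (Sox7 and Sox18), and of 2 astrocyte members Chrdl1 rose and Aldoc fell. Olig2, Sox7 and Sox18 were already counted among the developmental transcription factors, and Chrdl1 among growth factors and morphogens. Of all members, 22.9% rose and 3.81% fell in CD229+CD11c- cells, against 9.52% and 3.47% of all regions. In CD229+CD11c+ cells, Olig2 and, of 6 neuronal members, Map2 and Elavl2 rose, with log2 fold changes of 0.55 and 0.33. No member was called in the lists of interferon response (3 members), cell cycle inhibitors (2), peripheral macrophages (1), and neutrophils and dendritic cells (1) in either comparison. The calls at Map2, Elavl2 and Chrdl1 were lost in 8, 5 and 2 of 12 leave-one-out fits. Of the called members on these cell type lists, Aldoc alone was lower. The part of other cells in these values was not tested.

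Members that shared a nearest gene did not always move together. Beside Lmna, the Igfbp5 region over its first exon (chr1:72868217-72880040) rose in CD229+CD11c- cells (log2 fold change 0.51 ± 0.08 SE, adjusted p = 1.2e-04) and in CD229+CD11c+ cells (0.41), while the one over its 3' UTR (chr1:72858763-72865749) had 0.34 and 0.22 and did not pass. Igfbp5 encodes a binding protein of insulin-like growth factors and was chosen after its values were seen. Of the 34 members on the X chromosome, 13 rose in CD229+CD11c- cells and 0 fell. On the autosomes 227 of 1016 rose and 40 fell. Over all 26326 regions, 9.52% rose and 3.47% fell. Regions on X outside the members were not counted apart, so the trait cannot be called particular to members. A gene start lay inside 82.4% of the X members and 53.1% of the autosomal ones, and their median Basal log2 enrichment was 2.40 and 1.68. The part of these traits in the difference was not tested.

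Length and distance to a start went with the calls as well. Of 111 members of 20 kb or more, 53 rose in CD229+CD11c- cells and 3 fell (median 0.23), and of 154 members under 3 kb, 11 rose and 2 fell (median 0.03), where counts were lower too. Of 311 members centred within 1 kb of a start, 92 rose and 7 fell, and of 317 centred 10 kb or more away, 21 rose and 10 fell. Over all 26326 regions, 9.52% rose and 3.47% fell. These were not split by length or distance, so neither trend can be called particular to members. For comparison, of the 774 regions centred in protein-coding promoters, which held a start in 99.9%, 263 rose and 17 fell in CD229+CD11c- cells, and of 5756 intronic regions, which held one in 26.2%, 659 rose and 261 fell.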

How the data were processed

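H3K27me3 ChIP-seq was counted over regions called in basal microglia. Per the file headers, the authors called those regions with HOMER's replicate peak caller and DESeq2 on basal replicates 1 and 2 against 2 inputs in mm10, at an adjusted p below 0.05 and a log2 enrichment above 1. Per the submitters' processing notes, the tools were fastp 0.20.0 and Bowtie2 2.3.4.1, STAR 2.7.0f, DESeq2 and HOMER, and the builds named are mm10 and GRCm38; the step of each is not stated there. The deposited counts are raw tag counts per region for 12 libraries. The deposited basal table gave the log2 enrichment over input used to rank regions. Its log2 variance-stabilised values and tag density served in the offsets, and its region size (other unit) and p-value columns were left as deposited. Deposited score columns are placeholders or of unstated scale and were not used, and the authors' normalized signal, log2 fold change and p-value columns of the 12 libraries were not used either.

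All 26326 regions were fitted together with edgeR 4.0.16 in R 4.3.3 (filterByExpr, which removed 0 regions; TMM; robust quasi-likelihood; 4 groups in 1 model), with Benjamini-Hochberg adjustment over all regions and a threshold of 0.05. The script was tested on simulated data. DESeq2 1.42.0 was an alternative, with other scalings, a filter of 50 tags in 3 libraries and loess offsets (span 0.3, R's own loess function). The PE150 tag as covariate, the replicate number as block, and each library left out were further alternatives. Depth per library is given with the results; counting error falls with depth, and no input was subtracted. Named regions are the called ones above the median level over members (21.8 CPM) whose groups did not overlap, ranked by fold change (10 each way for the comparisons of CD229+ subsets with Basal cells and between CD229+ subsets, 3 each way for the others), the 5 smallest p for CD229-CD11c- against Basal cells, the 5 longest and 5 densest members, and up to 4 per gene list; regions picked after a look at their values are marked as such. Some regions that this rule names are not reported here. The members and gene lists were chosen with earlier results of these data known. A gene start was called inside when the deposited distance to it was no longer than from the region's centre to its edge.

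Same-numbered replicates deviated together between CD229+CD11c- and CD229-CD11c- cells (correlations of deviations from group means 0.28, 0.13 and 0.46). They did so between CD229+CD11c+ and CD229-CD11c- cells too (0.24, 0.13 and 0.42). The replicate number was therefore used as a block in an alternative fit, while the main counts and fold changes use no block. The pairing comes from the data and not from the labels. Replicates 1 and 2 of different number correlated as well (0.14 and 0.25, and 0.13 and 0.18), and replicate 3, the untagged library, ran against both, so the block separates replicate 3 from the rest more than it separates each number.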

Additional observations from a re-analysis of the deposited data

Results flagged for a closer look

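Among the named regions, 15 differed between the CD229+ subsets by the test of that difference itself, CD229+CD11c+ over CD229+CD11c- (edgeR's quasi-likelihood test, Benjamini-Hochberg adjustment), although the cuprizone diet was common to both. In log2 units the difference was -0.75 at Kcnk12, -0.56 at Ankrd63, -0.54 at Proser2, -0.53 at Ppp1r1b, -0.45 at Arid3c, -0.44 at Kcng3 and -0.43 at Ppp1r3g. It was -0.42 at Pced1b, -0.41 at each of Mapk12, Tmem145 and Wnk4, -0.32 at Zfp853 and Kcnh3, and -0.30 at Olig2. All 14 had risen in CD229+CD11c- against Basal cells, a comparison that uses the same CD229+CD11c- libraries. In all 14, the 3 CD229+CD11c- libraries lay above the 3 CD229+CD11c+ libraries. For the 10 named by rule in this comparison the rule required this, so it adds no support. Ddx41 was the opposite case with 0.81, and its CD229+CD11c- level had fallen against Basal cells. Of the 10 named by rule in this comparison, all lost the call in at least 1 leave-one-out fit.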

How the results depend on the processing

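A filter of 50 tags, DESeq2's size factors and all region lengths kept every count of called members within 1.5 times its value; the default filter and the CpG criterion removed 0 regions, so leaving them out could change nothing. Over leave-one-out fits the counts of called members ran from 192 to 345 for CD229+CD11c- against Basal cells, 43 to 245 for CD229+CD11c+ against Basal cells, 0 to 3 for CD229-CD11c- against Basal cells, 141 to 200 for CD229+CD11c- against CD229-CD11c- cells, 5 to 32 for CD229+CD11c+ against CD229-CD11c- cells and 0 to 69 for CD229+CD11c+ against CD229+CD11c- cells. From the second comparison on, in that order, the PE150 covariate gave 331, 2, 326, 151 and 139. Shares over all regions varied over the leave-one-out fits too. The share called higher ran from 6.35% to 11.9% for CD229+CD11c- and from 1.26% to 7.82% for CD229+CD11c+ against Basal cells. Between the CD229+ subsets the share called lower ran from 0.0342% to 2.81%. The tagged libraries alone gave 319 for CD229+CD11c+ and 64 for CD229-CD11c- against Basal cells, 89 for CD229+CD11c+ against CD229-CD11c- cells and 114 between the CD229+ subsets. Offsets for the trend with enrichment and density gave 152 for CD229+CD11c- and 88 for CD229+CD11c+ against Basal cells, 68 and 10 for the same subsets against CD229-CD11c- cells, and 3 between them, of which 1 was lower. Fitting only the groups compared gave 251 for CD229+CD11c+ against Basal cells, 4 for CD229+CD11c+ against CD229-CD11c- cells and 59 between the CD229+ subsets. DESeq2's test gave 35 and 58 for the last 2 of these, and total-count scaling 0 between the CD229+ subsets. The replicate block gave 334 for CD229+CD11c- and 189 for CD229+CD11c+ against CD229-CD11c- cells. It gave 151 between the CD229+ subsets, where same-numbered libraries correlated at 0.20, 0.083 and 0.33, positive as in the other pairs of subsets. The labels do not say whether these libraries share a pool. For the comparisons with Basal cells no paired fit was possible, because Basal libraries share only the number 3 with the subsets.

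With the offsets, 4 rises in CD229+CD11c- against Basal cells turned: Smpd3 to -0.0508, Cyp27b1 to -0.0822, Cldn9 to -0.0770 and Pcdh17 to -0.0133. Among the named regions, 5027 values stayed on the same side of the threshold, 365 lost it and 185 gained it. The other 4 changed sign with a call in the main or the alternative fit. A change of sign without a call in either fit counted as staying on the same side. The causes were not tested. Apoe lost its call with DESeq2's test in both CD229+ subsets (adjusted p 0.067 and 0.068). Weakly marked regions such as Apoe and Cd72 rest on fewer tags and are the least certain.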
